A study of Homo sapiens with 12 samples.

Results

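The 38 genes described here are targets, partners and effectors of the transcription factor NRF2, together with enzymes that make, use or recycle glutathione. They were taken by gene symbol from a list that was drawn up with earlier results of these data known, and all 38 were found among the 19677 genes of each count table. Of these, 36 passed the filter on low counts and were tested among 12470 genes. The 2 that did not pass were GPX2 and GPX3, peroxidases of the gut lining and of plasma. GPX2 had 4 to 13 counts and GPX3 0 or 1 count summed over the 3 libraries of a group.

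RNA was sequenced from CAOV3, an established line of human ovarian carcinoma cells that the labels describe as high grade serous epithelium of wild-type genotype. Control cells received DMSO, the solvent. A second group was given 10% ovarian cancer ascites, fluid from the abdominal cavity of patients with this cancer, with DMSO; another was given 200 uM bezafibrate, a fibrate that activates the PPAR nuclear receptors; and the last was given the drug together with 10% ascites (here the combination). Each group had 3 libraries, all cells grew in DMEM with 10% fetal bovine serum, and the labels of the treated groups list 16 hours, with no time in the treatment label of control cells. DMSO is named only for the groups without the drug, so the drug and any difference in solvent cannot be told apart. The labels do not say whether replicates were separate cultures, or how many ascites samples or donors were used, so p-values measure only the spread between these libraries, which may be technical. All results come from 1 cell line. Expression is given as CPM, a gene's count relative to the effective size of its library, and fold changes are on the log2 scale from edgeR's quasi-likelihood test. A gene was called, and is said to have risen or fallen, where the p-value, adjusted by Benjamini-Hochberg across all genes tested, was under 0.05.

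NRF2, encoded by NFE2L2, is held at a low level in unstressed cells by KEAP1, an adaptor that directs it to the proteasome. Oxidants and electrophiles modify KEAP1, NRF2 accumulates, pairs with a small MAF protein and binds antioxidant response elements beside genes for glutathione synthesis, thioredoxin and peroxide reduction, quinone and carbonyl reduction, heme breakdown and NADPH supply. Much of this control acts on the NRF2 protein, which RNA counts do not measure.

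The DNA element of this pathway was looked for in RefSeq promoter windows (GRCh38.p14, 250 bases before to 50 after a transcription start). The core searched was TGACNNNGC on both strands, and windows were available for 31 of the 38 members. The 7 members without a window, which were not searched, were GSS, SOD1, GSR, AKR1B10, HMOX1, PRDX1 and PRDX6. The core was present in the windows of 12 members, or 38.7%, against 16.1% of all 27305 symbols in the table. By window, 13 of the 41 member windows held it, against 13.3% of all 35116 windows. The members include known NRF2 targets, so a higher share among them could come from their choice. A match is a description of these letters and not a measured binding site. The following 29-base stretches are shown, 5′ to 3′ with the matching letters in capitals, because PIR rose and TXNRD1 fell with bezafibrate while GCLM and GSTP1 were not called, so that genes with a match went in different directions.
PIR, chrX:15493289-15493317, plus strand: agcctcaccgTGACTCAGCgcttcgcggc
TXNRD1, chr12:104286920-104286948, minus strand: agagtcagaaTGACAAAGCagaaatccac
GCLM, chr1:93909446-93909474, plus strand: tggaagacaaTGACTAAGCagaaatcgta
GSTP1, chr11:67583736-67583764, plus strand: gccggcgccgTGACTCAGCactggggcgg

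The TXNRD1 stretch lies 102 bases before a start, and TXNRD1 windows held 3 matches in all. The PIR match lies 26 bases after the start, the GCLM match 34 bases before it and the GSTP1 match 66 bases before it. Of the 7 members called in both drug comparisons that had a window, 2 held a match (PIR and TXNRD1), and of the 18 tested members called in neither, 8 did. MGST1, called higher with the drug alone, also held a match. Whether the core takes part in these changes was not tested.

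A longer sequence is shown for AKR1C1, which rose in both drug comparisons, because most of it recurs beside the neighbouring gene AKR1C2. It covers the 250 bases before the AKR1C1 start at chr10:4963165-4963414, plus strand. The 245 bases in capitals occur base for base on the other strand at chr10:5003863-5004107, before the AKR1C2 start of the RefSeq window, which lies inside the annotated span of that gene (chr10:4987775-5018000). The sequence lies before the annotated start of AKR1C1, so it does not show how RNA reads were divided. None of the windows of AKR1C1, AKR1C2 and AKR1C3 held the searched core. Sequence outside the windows was not searched, so an element farther from a start would not be seen.
AKR1C1 upstream: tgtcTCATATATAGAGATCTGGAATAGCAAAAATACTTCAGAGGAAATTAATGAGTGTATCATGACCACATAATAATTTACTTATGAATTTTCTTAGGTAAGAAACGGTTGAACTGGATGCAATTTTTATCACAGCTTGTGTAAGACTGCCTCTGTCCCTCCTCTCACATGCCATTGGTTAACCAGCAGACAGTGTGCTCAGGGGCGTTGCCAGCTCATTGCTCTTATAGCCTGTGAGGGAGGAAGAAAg

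AKR1C3, the other member of this gene cluster, had 2 start windows, which were 76.8% and 79.1% identical to that of AKR1C1 over the aligned bases. The likeness extends into the transcripts. In the GENCODE 29 annotation, 33.4% of the 31-base words of AKR1C1 exons and 54.3% of those of AKR1C2 also occur in other genes, mostly in each other, against 14.6% for AKR1C3. How reads were divided between AKR1C1 and AKR1C2 is therefore uncertain.

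Without ascites, bezafibrate raised 10 of the 36 tested members and lowered 3. These 13 were 36.1% of the members tested, while 17.6% of all 12470 genes were called in this comparison (10.1% higher and 7.55% lower). Members were not matched to all genes by count level, on which calls of small changes depend. With ascites present, the drug raised 9 members and lowered 2, or 30.6%, against 17.8% of all genes (10.5% higher and 7.29% lower). The median log2 fold change of the members was 0.05 without ascites and 0.03 with it, and the median of all genes was -0.0037 in both comparisons. These 2 comparisons share no library, but both use a spread estimated from all 12 libraries and so are not fully separate tests. They had 10 called members in common, 8 higher (AKR1C1, AKR1C2, AKR1B10, PIR, HMOX1, BLVRB, GPX4 and PRDX6) and 2 lower (TXNRD1 and UGDH), while 7.95% of all genes were called higher in both and 4.69% lower in both. No member was called in opposite directions (0 of 36), and 22 were called in neither. With only the 2 groups fitted, HMOX1 and TXNRD1 were not called in the combination against ascites. The combination against control, which shares libraries with both, called 10 members higher and 2 lower, where 18.2% of all genes were called (10.3% higher and 7.96% lower). Between the 6 libraries with the drug and the 6 without it, 7 members did not overlap and were all higher, 2 were all lower and 27 overlapped, while 15.3% of all genes did not overlap (9.01% higher and 6.32% lower).

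**Figure D1:**
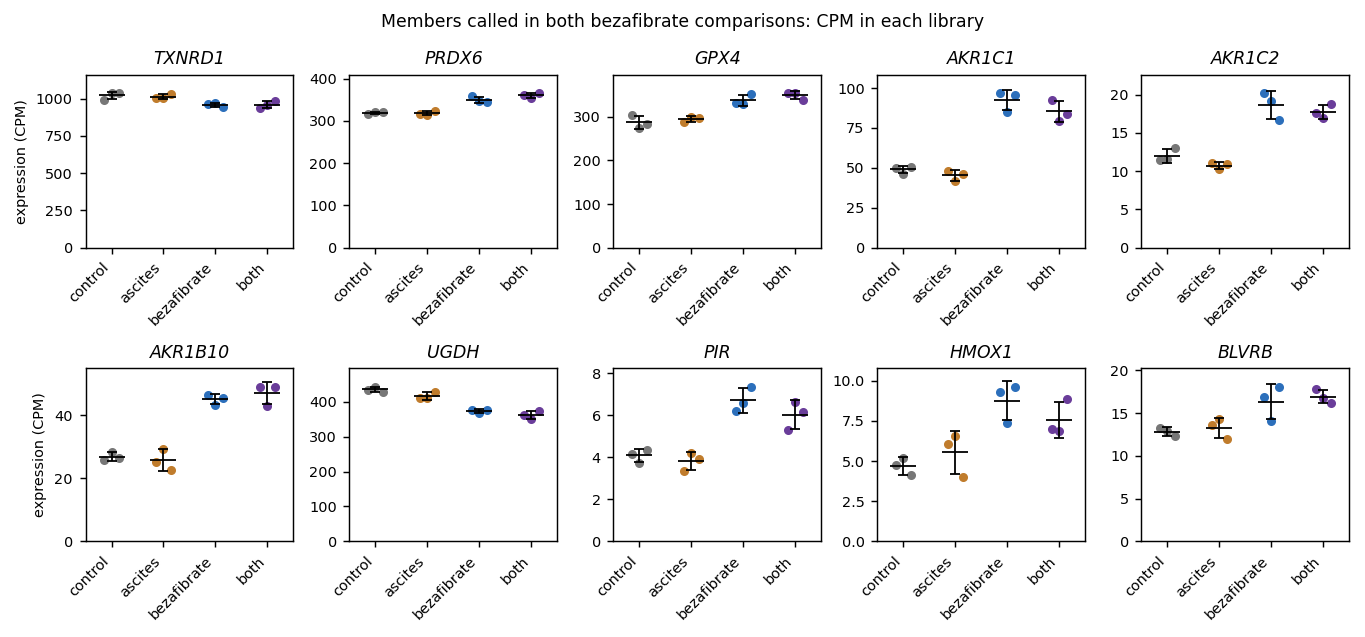
Expression in CPM (vertical axes, each starting at 0) of the 10 members called in both bezafibrate comparisons, 1 panel a gene, in control, ascites, bezafibrate and combination ("both") libraries; points are libraries, horizontal bars means and error bars SD over 3. The 6 libraries with the drug lie above the 6 without it for AKR1C1, AKR1C2, AKR1B10, PIR, HMOX1, GPX4 and PRDX6, below them for TXNRD1 and UGDH, and overlap them for BLVRB.

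**Figure D2:**
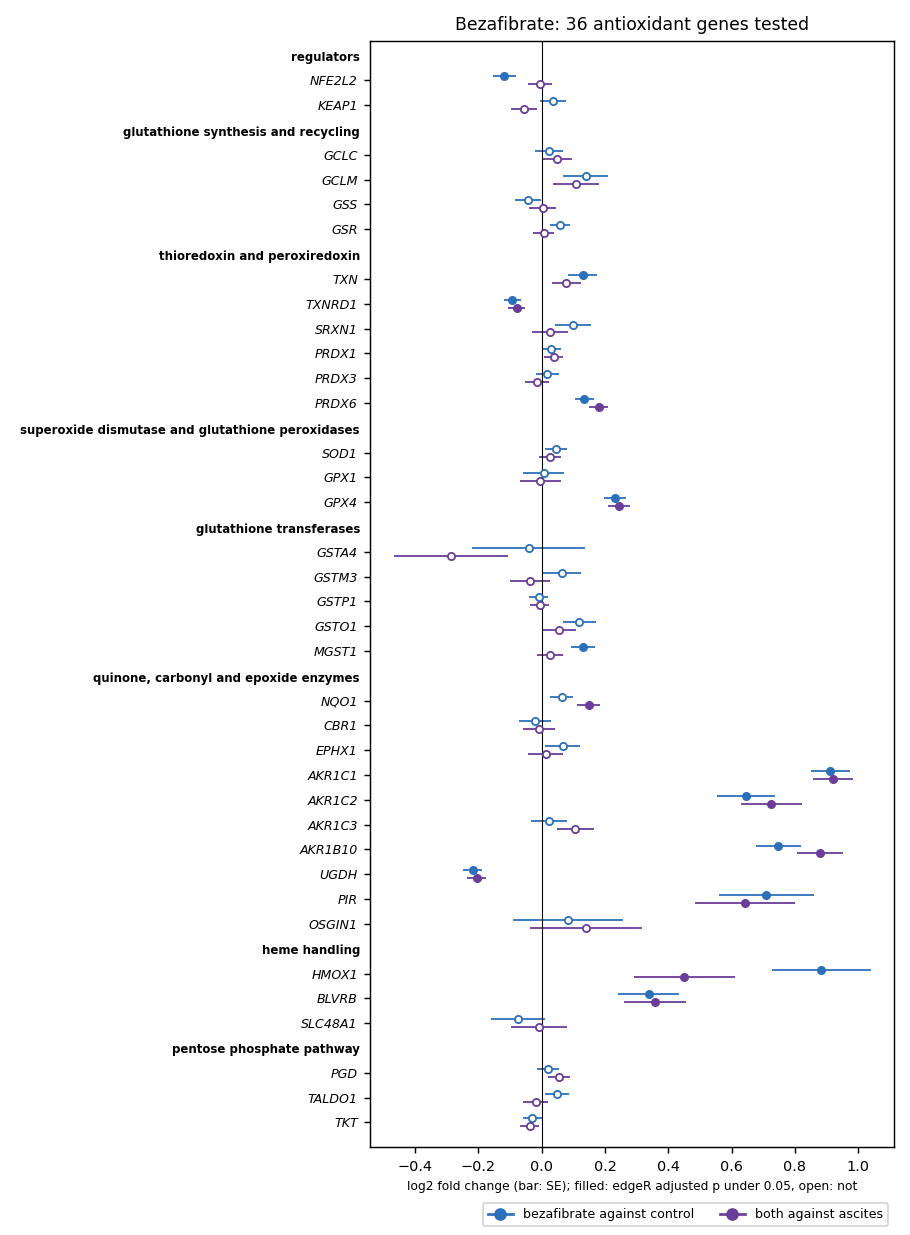
Log2 fold change (horizontal axis) of the 36 tested members, grouped by role, for bezafibrate against control and for the combination ("both") against ascites; bars are SE, filled points passed an edgeR adjusted p of 0.05 and open points did not. AKR1C1, AKR1C2, AKR1B10, PIR and HMOX1 stand at 0.45 to 0.92, and the points of the 4 genes of glutathione synthesis and recycling are open, at -0.04 to 0.14.

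Among the regulators, NFE2L2 had 147, 152 and 145 CPM in control libraries, 143, 138 and 146 with ascites, 136, 138 and 134 with bezafibrate, and 141, 139 and 146 with the combination. All 3 bezafibrate libraries were below all 3 controls, while the combination and ascites libraries overlapped. NFE2L2 RNA fell by 0.12 ± 0.037 (SE, edgeR adjusted p = 0.02) with the drug alone and stood at -0.0049 on the log2 scale when ascites was present (edgeR adjusted p = 0.957). The difference between these changes was 0.11 (edgeR adjusted p = 0.999). The call for the drug alone was lost without control replicate 2 (-0.098), bezafibrate replicate 1 (-0.12) or bezafibrate replicate 3 (-0.11). KEAP1 had 141, 142 and 141 CPM in control, 151, 150 and 150 with ascites, 145, 141 and 150 with bezafibrate, and 150, 151 and 132 with the combination. Its 3 ascites libraries were above the 3 controls, and combination replicate 3 was the lowest of the 12. KEAP1 was not called in any of the 6 comparisons, with 95% intervals of -0.05 to 0.12 for the drug alone and -0.14 to 0.03 with ascites.

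The 4 genes of glutathione synthesis and recycling were called in neither drug comparison. GCLC and GCLM encode the catalytic and modifier subunits of glutamate-cysteine ligase, the rate-limiting enzyme of glutathione synthesis. GCLC had 70.9, 73.5 and 75.2 CPM in control, 72.4, 74.0 and 70.6 with ascites, 76.9, 73.0 and 73.1 with bezafibrate, and 74.6, 72.5 and 77.4 with the combination. All 4 groups overlapped, and its log2 fold change with the drug was 0.02 (95% interval -0.07 to 0.11) without and 0.05 (-0.04 to 0.14) with ascites. GCLM had 35.8, 38.7 and 33.8 CPM in control, 36.03, 38.8 and 37.4 with ascites, 37.8, 41.8 and 39.6 with bezafibrate, and 35.5, 40.8 and 45.7 with the combination. The combination libraries spanned the whole range of the ascites group. GCLM had drug changes of 0.14 ± 0.070 (SE, edgeR adjusted p = 0.197) and 0.11 ± 0.072 (edgeR adjusted p = 0.352). Without combination replicate 1 it was called in the combination against ascites at 0.21 (edgeR adjusted p = 0.0335) and against control at 0.26 (edgeR adjusted p = 0.00712). GSS, glutathione synthetase, had values of -0.04 and 0.0026, and GSR, which reduces oxidised glutathione with NADPH, of 0.06 and 0.0066.

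**Figure D3:**
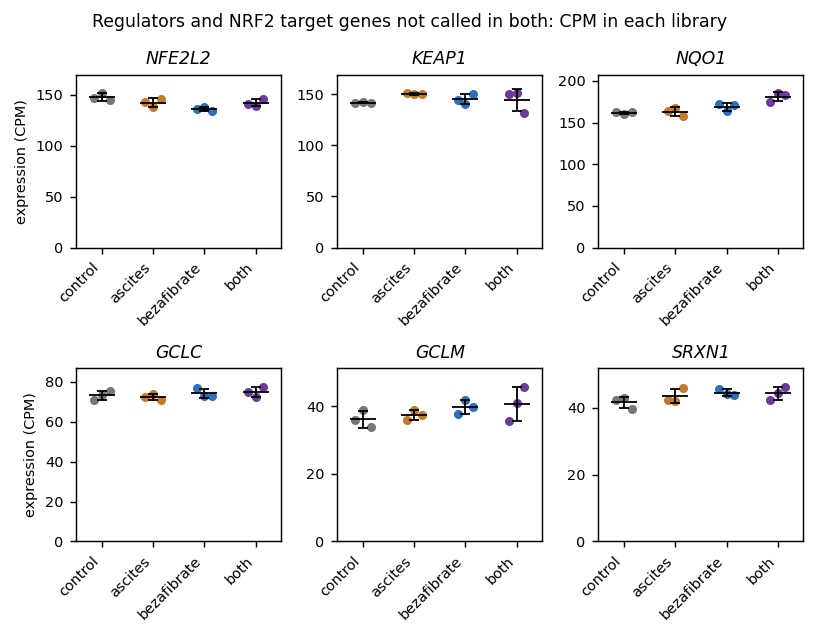
Expression in CPM (vertical axes, each starting at 0) of NFE2L2, KEAP1, NQO1, GCLC, GCLM and SRXN1 in control, ascites, bezafibrate and combination ("both") libraries; points are libraries, horizontal bars means and error bars SD over 3. NQO1 is highest in the 3 combination libraries (175 to 185 CPM), and the GCLC groups overlap.

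In the thioredoxin and peroxiredoxin system, which reduces peroxides and protein disulfides, members went in different directions. TXNRD1, thioredoxin reductase, which passes electrons from NADPH to thioredoxin, had 994, 1038 and 1037 CPM in control, 1006, 1005 and 1031 with ascites, 966, 968 and 941 with bezafibrate, and 936, 960 and 983 with the combination. All 6 libraries with the drug were below all 6 without it. TXNRD1 fell by 0.09 ± 0.027 (SE, edgeR adjusted p = 0.0103) without ascites and by 0.08 ± 0.027 (edgeR adjusted p = 0.0336) with it. The first call was lost without control replicate 2, control replicate 3 or bezafibrate replicate 3 (log2 fold changes of -0.081, -0.083 and -0.080), and the second without any 1 of the ascites libraries or without combination replicate 1 or 2 (-0.086 to -0.062), or with only the 2 groups fitted. PRDX6, a peroxiredoxin that also reduces lipid peroxides, had 316, 321 and 321 CPM in control, 316, 315 and 325 with ascites, 359, 348 and 344 with bezafibrate, and 362, 355 and 366 with the combination. PRDX6 rose by 0.13 ± 0.030 (SE, edgeR adjusted p = 0.000755) and 0.18 ± 0.030 (edgeR adjusted p = 1.23e-05), and the libraries with and without the drug did not overlap.

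TXN, thioredoxin itself, rose by 0.13 (edgeR adjusted p = 0.0454) with the drug alone and had 0.08 (edgeR adjusted p = 0.284) with ascites. In the combination against control TXN rose by 0.14 (edgeR adjusted p = 0.0342), a call lost under upper-quartile scaling, with DESeq2, with only the 2 groups fitted, and without control replicate 1 (0.14), control replicate 2 (0.12) or combination replicate 2 (0.10). The call for the drug alone was lost under upper-quartile scaling, DESeq2 and limma-voom, and without any control library or bezafibrate replicate 1 or 2, at log2 fold changes of 0.11 to 0.15. SRXN1, sulfiredoxin, which restores overoxidised peroxiredoxins, had 42.3, 42.8 and 39.7 CPM in control, 42.4, 42.1 and 45.9 with ascites, 45.8, 44.3 and 43.7 with bezafibrate, and 42.4, 44.6 and 46.3 with the combination. Its bezafibrate libraries were above its controls, but the ascites and combination libraries overlapped, and the changes of 0.10 (edgeR adjusted p = 0.264) and 0.03 (edgeR adjusted p = 0.831) were not called. SRXN1 shares 84.9% of its exon words with AL121758.1, which overlaps it, so its count is uncertain. PRDX1 (683 to 741 CPM over the 12 libraries) and the mitochondrial PRDX3 (154 to 172 CPM) were not called, with drug changes between -0.01 and 0.04.

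GPX4, the peroxidase that reduces lipid hydroperoxides in membranes with glutathione and protects from ferroptosis, had 303, 275 and 284 CPM in control, 287, 300 and 298 with ascites, 331, 330 and 353 with bezafibrate, and 354, 354 and 339 with the combination. Every library with the drug was above every library without it. GPX4 rose by 0.23 ± 0.035 (SE, edgeR adjusted p = 2.22e-06) without and by 0.24 ± 0.035 (edgeR adjusted p = 1.03e-06) with ascites. GPX1, the cytosolic peroxidase (92.3 to 118 CPM), and SOD1, which converts superoxide to peroxide (168 to 185 CPM), were not called in either drug comparison. GPX1 had changes of 0.0061 and -0.0046 and SOD1 of 0.05 and 0.03. In the combination against control GPX1 was at 0.14 (edgeR adjusted p = 0.179), and it was called there without a filter, without control replicate 1 (0.21) or without combination replicate 3 (0.22).

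The glutathione transferases, which attach glutathione to electrophiles, held the most abundant member per kilobase of exon. GSTP1 had 610 CPM per kilobase of exon in control cells, ahead of PRDX1 at 559, GPX4 at 233 and TXNRD1 at 203, whereas PIR was at 2.66, HMOX1 at 2.58 and OSGIN1 at 1.64. These levels are per exon length in GENCODE 29, which may not be the annotation behind the counts. GPX1 had no length there and was not ranked. In CPM without regard to length, TXNRD1 (1023 in control) and PRDX1 (700) were above GSTP1 (586). GSTP1 had drug changes of -0.0098 and -0.0070 and was not called. MGST1, a membrane-bound transferase, rose by 0.13 ± 0.039 (SE, edgeR adjusted p = 0.0158) with the drug alone and had 0.03 (edgeR adjusted p = 0.739) with ascites. The MGST1 call was lost without control replicate 1, bezafibrate replicate 1 or bezafibrate replicate 2 (0.12 in each). GSTA4, GSTM3 and GSTO1 were not called, with changes from -0.29 for GSTA4 with ascites, at 3.38 to 6.01 CPM, to 0.12 for GSTO1 without it.

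Of the 10 members that handle quinones, carbonyls and epoxides, 4 rose and 1 fell with the drug alone, and 5 rose and 1 fell with ascites present. Among all genes, 10.1% were called higher and 7.55% lower with the drug alone, and 10.5% and 7.29% with ascites present. AKR1C1 (ENSG00000187134.14), an aldo-keto reductase that reduces steroids and reactive aldehydes, had 50.2, 46.4 and 50.7 CPM in control, 48.1, 41.5 and 46.3 with ascites, 96.9, 85.0 and 95.6 with bezafibrate, and 92.9, 79.6 and 83.9 with the combination. The lowest library with the drug, combination replicate 2, was far above the highest without it. AKR1C1 rose by 0.91 ± 0.061 (SE, edgeR adjusted p = 1.02e-12) without and 0.92 ± 0.064 (edgeR adjusted p = 2.07e-12) with ascites. AKR1C2 (ENSG00000151632.18), which inactivates dihydrotestosterone, had 11.4, 11.5 and 13.01 CPM in control, 11.04, 10.2 and 10.9 with ascites, 20.2, 19.1 and 16.6 with bezafibrate, and 17.7, 16.9 and 18.7 with the combination. It rose by 0.65 ± 0.092 (SE, edgeR adjusted p = 7.49e-07) and 0.73 ± 0.097 (edgeR adjusted p = 2.14e-07), also without overlap. AKR1C3, which makes testosterone and prostaglandins, stood between 55.7 and 69.0 CPM in all 12 libraries, and its changes of 0.02 (edgeR adjusted p = 0.861) and 0.11 (edgeR adjusted p = 0.254) were not called. Without combination replicate 2 the latter was 0.17 and called (edgeR adjusted p = 0.0415).

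With the counts of AKR1C1, AKR1C2 and AKR1C3 added together, so that the division between them no longer matters, the sum was 125.5 ± 4.83 CPM in control, 115.1 ± 6.95 with ascites, 176.6 ± 8.48 with bezafibrate and 166.4 ± 13.1 with the combination (SD, n = 3 libraries). The sum of AKR1C1, AKR1C2 and AKR1C3 rose by 0.49 ± 0.051 (SE, edgeR adjusted p = 6.88e-08) without and 0.53 ± 0.053 (edgeR adjusted p = 2.76e-08) with ascites.

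AKR1B10 (ENSG00000198074.10), which reduces retinal and lipid aldehydes, had 25.7, 28.4 and 26.4 CPM in control, 25.1, 29.4 and 22.7 with ascites, 46.5, 43.4 and 45.4 with bezafibrate, and 49.0, 43.0 and 49.0 with the combination. Again no library with the drug overlapped one without it. AKR1B10 rose by 0.75 ± 0.071 (SE, edgeR adjusted p = 1.71e-10) and 0.88 ± 0.073 (edgeR adjusted p = 6.03e-12). It shares 20.1% of its exon words with AKR1B15; with both summed, an alternative chosen after seeing the data, the rises were 0.75 and 0.88. PIR (ENSG00000087842.11), pirin, an iron-binding nuclear protein with quercetinase activity, had 4.16, 3.75 and 4.36 CPM in control, 3.35, 4.22 and 3.91 with ascites, 6.21, 6.56 and 7.35 with bezafibrate, and 5.28, 6.62 and 6.16 with the combination. All libraries with the drug were above all those without it, at 47 to 122 counts a library. PIR rose by 0.71 ± 0.15 (SE, edgeR adjusted p = 0.000442) and 0.64 ± 0.16 (edgeR adjusted p = 0.00273).

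UGDH, which makes UDP-glucuronic acid for glucuronidation and matrix glycans, went the other way. It had 435, 442 and 428 CPM in control, 409, 411 and 429 with ascites, 377, 368 and 376 with bezafibrate, and 362, 349 and 372 with the combination. UGDH fell by 0.22 ± 0.030 (SE, edgeR adjusted p = 4.11e-07) without and by 0.21 ± 0.030 (edgeR adjusted p = 1.71e-06) with ascites, with no overlap between libraries with and without the drug. NQO1 (ENSG00000181019.13), the quinone reductase most often used as a readout of NRF2, had 163, 161 and 162 CPM in control, 164, 168 and 158 with ascites, 172, 164 and 171 with bezafibrate, and 175, 185 and 183 with the combination. The combination libraries were the 3 highest, and the 3 bezafibrate libraries lay above the 3 controls but overlapped the ascites group. NQO1 had a change of 0.06 ± 0.036 (SE, edgeR adjusted p = 0.271) with the drug alone, rose by 0.15 ± 0.037 (edgeR adjusted p = 0.00268) with ascites present, and rose by 0.16 (edgeR adjusted p = 0.00127) in the combination against control. The difference between the drug's changes with and without ascites was 0.09 (edgeR adjusted p = 0.999), and NQO1 was therefore not shown to respond differently. CBR1, a carbonyl reductase, EPHX1, an epoxide hydrolase, and OSGIN1, a stress-induced growth inhibitor, were not called, with changes from -0.02 to 0.14.

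In heme handling, HMOX1 (ENSG00000100292.18), heme oxygenase 1, which opens heme to biliverdin, iron and carbon monoxide, had 4.77, 5.22 and 4.13 CPM in control, 6.05, 6.56 and 4.04 with ascites, 9.28, 7.37 and 9.62 with bezafibrate, and 6.98, 6.88 and 8.87 with the combination. Its libraries with the drug were above those without it, by little between the highest ascites library and the lowest combination library. HMOX1 rose by 0.88 ± 0.16 (SE, edgeR adjusted p = 4.27e-05) with the drug alone and by 0.45 ± 0.16 (edgeR adjusted p = 0.0464) with ascites. The difference of these changes was -0.43 (95% interval -0.89 to 0.03, edgeR adjusted p = 0.999). The call with ascites was lost with DESeq2, limma-voom, upper-quartile scaling, a replicate block (0.45, adjusted p = 0.0677) or only the 2 groups fitted, and without ascites replicate 1 (0.53), ascites replicate 3 (0.25) or combination replicate 3 (0.33). BLVRB, biliverdin reductase B, had 13.3, 12.9 and 12.3 CPM in control, 13.6, 14.3 and 11.99 with ascites, 16.9, 14.1 and 18.1 with bezafibrate, and 17.8, 16.8 and 16.2 with the combination. Bezafibrate replicate 2 was below the highest ascites library. BLVRB rose by 0.34 ± 0.096 (SE, edgeR adjusted p = 0.0102) and 0.36 ± 0.098 (edgeR adjusted p = 0.00694). The first call was lost without control replicate 3 (0.31), bezafibrate replicate 1 (0.31) or bezafibrate replicate 3 (0.27), and the second without ascites replicate 3 (0.28). SLC48A1, a heme transporter, was not called (-0.08 and -0.0096).

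The pentose phosphate members PGD, TALDO1 and TKT, whose pathway supplies NADPH for these reductases, were expressed at 118 to 411 CPM and were not called in any comparison. Their drug changes lay between -0.04 and 0.05.

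Ascites was not seen to change any member. Against control, 0 of the 36 tested were called by edgeR, DESeq2 or limma-voom, where edgeR called 0.0882% of all genes. The 5 with an unadjusted p under 0.05 in edgeR were KEAP1 and GPX1, at 0.09 and 0.14, and AKR1C3, UGDH and PGD, at -0.13, -0.06 and -0.07; each had an adjusted p of 0.826. The 36 log2 fold changes ran from -0.15 for AKR1C2 to 0.24 for GSTA4. In drug-treated cells (combination against bezafibrate), 0 members were called by the same 3 tools, where edgeR called 0.128% of all genes (0.0401% higher and 0.0882% lower), and NQO1 alone had an unadjusted p under 0.05 (0.10, 95% interval 0.02 to 0.17, edgeR adjusted p = 0.794). Without combination replicate 3, GPX1 was called higher there, at 0.21 (edgeR adjusted p = 0.0169). The interaction, which asks whether the drug's change differed with ascites, called 0 members with each tool and 0% of all genes with edgeR, and NFE2L2 alone had an unadjusted p under 0.05. Both ascites comparisons share libraries with the drug comparisons.

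**Figure D4:**
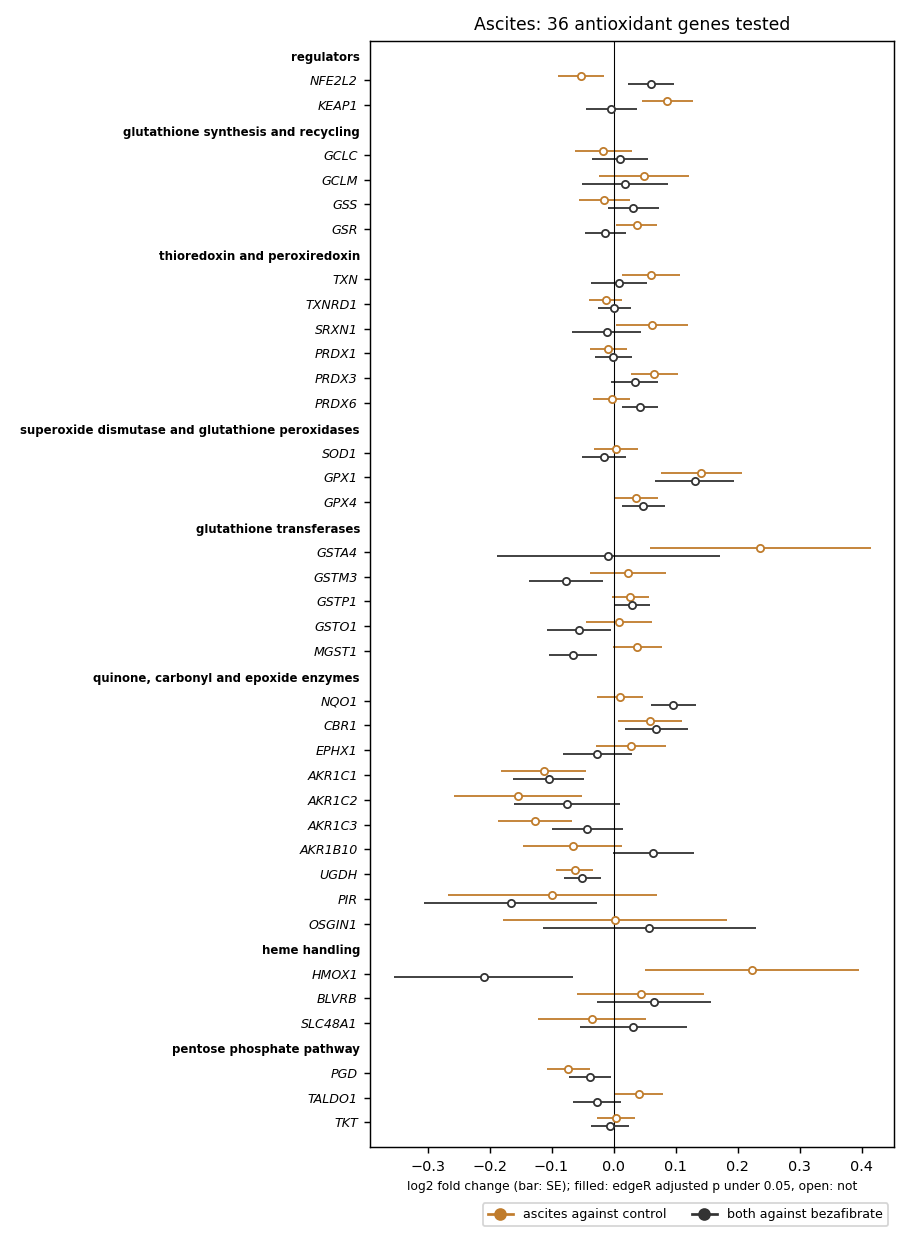
Log2 fold change (horizontal axis) of the 36 tested members, grouped by role, for ascites against control and for the combination ("both") against bezafibrate; bars are SE, and open points did not pass an edgeR adjusted p of 0.05. All points are open and lie between -0.21 and 0.24.

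Outside the 38, a list of further genes of the pathway had 59 genes in the tables, of which 56 were tested. Bezafibrate raised 11 and lowered 2 of them without ascites (23.2%, against 17.6% of all genes) and raised 8 and lowered 5 with it, where 10.5% of all genes were called higher and 7.29% lower. Called in both comparisons were 8 higher and 2 lower, against 7.95% and 4.69% of all genes. SQSTM1, p62, an NRF2 target that competes for KEAP1, rose from 283 ± 8.03 CPM in control to 457 ± 11.4 with the drug (SD, n = 3 libraries), by 0.69 without and 0.70 with ascites. BACH1, a repressor that competes with NRF2 for its DNA elements, rose by 0.21 and 0.38, and the first call was lost without bezafibrate replicate 1 (0.15, edgeR adjusted p = 0.0561). CAT, catalase, a peroxisomal enzyme that breaks down hydrogen peroxide, rose by 0.69 and 0.64. ABCC3, an exporter of conjugates, rose by 0.66 and 0.71, whereas ABCC2, another such exporter, fell by 0.34 and 0.37. The membrane-bound transferases MGST2 and MGST3 rose by 0.33 and 0.44 without ascites and by 0.40 and 0.42 with it. AKR1B1, aldose reductase, rose by 0.25 and 0.20, and AIFM2, which protects membranes from lipid peroxidation, by 0.15 and 0.27. The AIFM2 call without ascites was lost without control replicate 3 (0.13) or bezafibrate replicate 1 (0.11). TXNRD2, the mitochondrial thioredoxin reductase, fell by 0.29 and 0.31. None of these 56 genes was called in either ascites comparison or in the interaction.

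**Figure D5:**
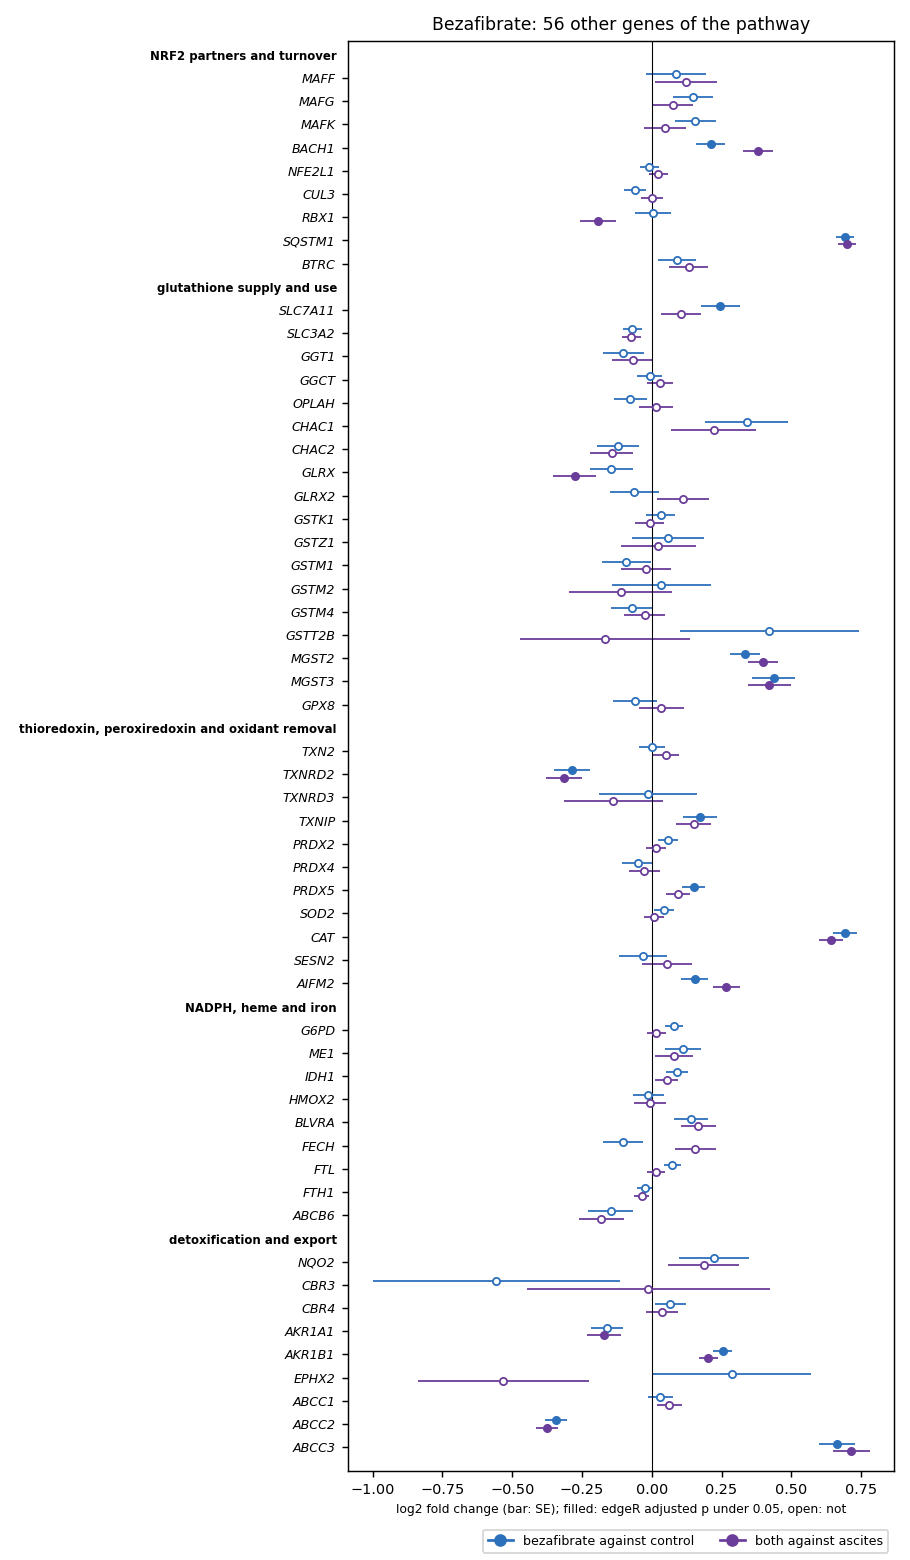
Log2 fold change (horizontal axis) of the 56 further pathway genes, grouped by role, for bezafibrate against control and for the combination ("both") against ascites; bars are SE, filled points passed an edgeR adjusted p of 0.05 and open points did not. SQSTM1, CAT and ABCC3 stand at 0.64 to 0.71, and TXNRD2 and ABCC2 at -0.37 to -0.29.

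Total counts ran from 11831093 to 18762759 a library, and edgeR put the common biological coefficient of variation at 3.06%. Read as a check of the drug labels, the PPAR targets PDK4, ANGPTL4, PLIN2 and CPT1A rose by 4.07, 3.60, 2.73 and 0.97 with bezafibrate against control. The epithelial keratins KRT8 and KRT18 were high (2867 to 3166 and 1693 to 1875 CPM), but the serous and Müllerian markers PAX8 (at most 1.27 CPM), WT1, MUC16 and MSLN were near 0. Of 10 blood markers 7 had no count in any library, and the 10 summed to 1.68 to 4.25 CPM. The 6 fibroblast markers summed to 9.99 to 11.5 CPM without the drug and to 5.57 to 7.21 with it. The part of this shift in the results was not tested. The 2 fibroblast markers tested were called lower in both drug comparisons, where 7.55% and 7.29% of all genes were called lower. The 4 mesothelial markers summed to 1.02 to 1.27 CPM in control and 0.783 to 1.09 with ascites. With bezafibrate their sum was 1.21 to 1.29 CPM and with the combination 1.52 to 2.46. The 1 mesothelial marker tested was not called. The 9 epithelial markers summed to 5560 to 5670 CPM in control, 5720 to 5870 with ascites, 5720 to 5980 with bezafibrate and 6170 to 6240 with the combination, so that ascites and bezafibrate alone overlapped. Single markers changed more than the sum. Of the 6 tested, 3 rose and 0 fell with the drug alone, by up to 1.515. With ascites present, 2 rose and 0 fell, by up to 1.69. Among all genes, 10.1% and 10.5% were called higher in these comparisons. Combination replicate 3 lay apart on the second principal component, at -22.4 against -4.37 to 9.84 for the other 11 libraries.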

How the data were processed

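RNA-seq of 12 libraries gave 1 deposited table of whole-number counts per gene for each library, made by the authors. The submitters' processing notes list Trimmomatic 0.39, STAR 2.7.9a, RSEM 1.3.3, DESeq2 1.28.1 and GRCh38, without their roles; the counting settings, strandedness and annotation are not given in the sources used here. Overlapping or near-identical genes may share reads, and strand cannot be assumed.

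Genes were filtered with filterByExpr (minimum count 10, minimum total count 15), which removed 7207, and scaled by TMM. The 4 group means were fitted to all 12 libraries (8 residual degrees of freedom) with edgeR 4.0.16 (glmQLFit robust, glmQLFTest) in R 4.3.3, with Benjamini-Hochberg adjustment over all genes tested. CPM values were computed from the deposited counts and TMM library sizes. Groups and replicate numbers came from the labels. The test was run on counts simulated with the dispersions of the same fit, which does not check that model against these data. Alternatives used DESeq2 1.42.0, limma-voom (limma 3.58.1), other scalings and filters, a replicate block, only the groups compared, summed paralogs and each library left out.

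Members called in any of 6 comparisons were named, with values per library for those called in both drug comparisons and for NFE2L2, KEAP1, NQO1, HMOX1, GCLC, GCLM, TXNRD1 and SRXN1. Of the further pathway genes, those called in both drug comparisons were named. The members and lists were chosen with earlier results of these data known. Replicate pairs differed beyond counting noise (chi-square per degree of freedom 1.44 to 4.45), so each library counted once. Counting error is small for most members; the lowest count of a tested member in a library was 40. Sequences came from the RefSeq tables (GRCh38.p14) and exon words of 31 bases from GENCODE 29.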

Additional observations from a re-analysis of the deposited data

How the results depend on the processing

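Of the 36 calls of members in the 3 drug comparisons, 25 were the same under every alternative. Fits that kept every library of the groups compared gave 12 losses, including fits of only the 2 groups compared. Fits without 1 library gave 34 losses. AKR1C1, AKR1C2, AKR1B10, GPX4, PRDX6 and UGDH kept their calls in both drug comparisons, as did PIR. PIR lost its call in the combination against control without control replicate 2 (0.49) or combination replicate 2 (0.47). The number of members called stayed within 1.5 times the number reported under every alternative, except that the combination against bezafibrate gave 0 to 1 when a library was left out (1 without combination replicate 3). With 1 library left out, counts were 9 to 11 for bezafibrate against control, 8 to 11 for the combination against ascites, and 9 to 13 for the combination against control. Of all genes, 1761 to 1888, 1742 to 2188 and 1791 to 2385 were called in these 3 comparisons, among 12521 to 12581 tested. Member counts were 0 for ascites against control and for the interaction, where 3 to 5 and 0 to 3 of all genes were called. Upper-quartile scaling moved the median of all genes to -0.02 in the drug comparisons. None of the 36 calls changed sign, while values near 0 that were not called often did, such as GSTA4 for bezafibrate against control (-0.04, up to 0.13). AKR1C3 in the combination against control was -0.02 alone and, with a call in the opposite direction, 0.41 for the sum with AKR1C1 and AKR1C2, which by construction follows the larger changes of the others.

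Replicate numbers gave no sign of pairing: deviations from group means correlated at -0.135 to 0.061 (median 0.002) between same-numbered libraries of different groups. Differently numbered libraries of different groups correlated at -0.071 to 0.179 (median 0.007). With the number as a replicate block, 13, 10 and 12 members were called in bezafibrate against control, the combination against ascites and the combination against control, and 0 in the other 3 comparisons. Of the 12470 genes tested, 2145, 2154 and 2213 were called in the first 3. Ascites against control called 8, the combination against bezafibrate 14 and the interaction 1. Depth limits HMOX1, PIR, OSGIN1 and GSTA4 most (52 to 154 counts a library for HMOX1), and the small changes of TXN, TXNRD1, MGST1 and NFE2L2 lie close to what 3 libraries a group can call. The gene TRIM16L of the further pathway list was not analysed here.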
